A study of Mus musculus with 8 samples.

Results

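The heart is built from muscle cells held in a stroma of fibroblasts, mural cells and an outer epicardial layer, and 32 genes that mark these stromal cells were followed here. They were taken from a list of symbols, with no threshold on their values, as 13 fibroblast genes, 8 pericyte genes, 4 smooth muscle genes and 7 epicardial genes. All 32 were found by Ensembl identifier among the 141239 counted features (53465 Ensembl genes and 87774 features of NONCODE, a catalogue of noncoding transcripts). RNA was sequenced from hearts of 2-week-old mice of a strain given as mixed. All 8 libraries came from mice labelled Lmna knockout, which lack lamin A/C, filament proteins of the nuclear envelope. The 3 untreated libraries (replicates 6, 7 and 8) have no vector in their labels. The other 5 (replicates 1 to 5) came from knockout hearts that received wild-type Lmna through an adeno-associated virus vector, written AAV9 in all 5 titles and AV9 in the genotype field of 4 of them. The promoter of the vector, its dose and the cells it reached are not stated in the sources used here, and neither wild-type hearts nor hearts given an empty vector were analysed here.

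Fibroblasts lay down and remodel the matrix between muscle cells, and in the heart most of them descend from the epicardium. Pericytes wrap capillaries and smooth muscle cells wrap arteries, and both are recruited to vessels through the PDGF receptor encoded by Pdgfrb and matured through Notch3. The epicardium is a mesothelium, a thin epithelium that covers the heart and, in the embryo, releases cells that become fibroblasts and mural cells. In bulk RNA from whole tissue, fewer cells of a type and less RNA of that gene per cell cannot be told apart.

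Lmna itself was higher in each vector library, with 227 to 747 CPM against 32.3 to 68.7 CPM in the untreated libraries (log2 fold change 3.03, SE 0.46, edgeR adjusted p = 0.00486). Without untreated replicates 6 and 8 together the log2 fold change was 2.56. That fit leaves untreated replicate 7 alone in its group, so only its effect sizes are interpreted below. Values are listed below in the order of untreated replicates 6, 7 and 8 and then vector replicates 1 to 5. CPM are counts per 1000000 counts of library size after TMM scaling. Counts on features ran from 21439956 to 26492443 per library. The tissue label was matched by heart muscle markers, whose 12 genes summed to between 98737 and 164962 CPM. Untreated replicate 6 stood apart. Of its reads counted as on features, outside features or ambiguous, 24.7% lay outside every annotated feature. That share was 16.8% and 18.4% in replicates 7 and 8 and 12.1 to 12.8% in the vector libraries. Among 13785 coding genes tested, untreated replicate 6 held the lowest level of the 8 libraries in 42.5%, and in 23.8% after a correction for transcript length and GC content. That correction was run on Ensembl features scaled alone, without NONCODE features, so values after it carry both changes.

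None of the 32 stromal genes was called different between the groups by the main test. All 32 passed the filter on low counts, and 0 were called in either direction (quasi-likelihood fit in edgeR, Benjamini-Hochberg adjustment over 26717 features, threshold 0.05). The same rule called 25.7% of all features, 2843 higher (10.6%) and 4015 lower, and among 13785 coding genes 2535 higher and 837 lower. Only 2 members, Rgs5 and Vtn, had an unadjusted p under 0.05, where 40.6% of all features did. DESeq2 called 1 member higher (Rgs5, adjusted p = 0.0493) where it called 14.6% of features higher, and limma-voom called 0 where it called 25.9% of features. At an unadjusted p under 0.05 they had 2 and 6 members. The members' median log2 fold change was 0.24, beside -0.03 for all features and 0.21 for coding genes. With Ensembl features scaled alone it was 0.05, and after the length and GC correction 0.06. In those fits edgeR called 0 members where it called 12.9% and 7.71% of features. Each had 1 member at an unadjusted p under 0.05. Without untreated replicates 6 and 8, edgeR called 0 members where it called 7.17% of features. That count decides nothing about the members, because 1 untreated library was left and Lmna itself was not called there.

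**Figure D1:**
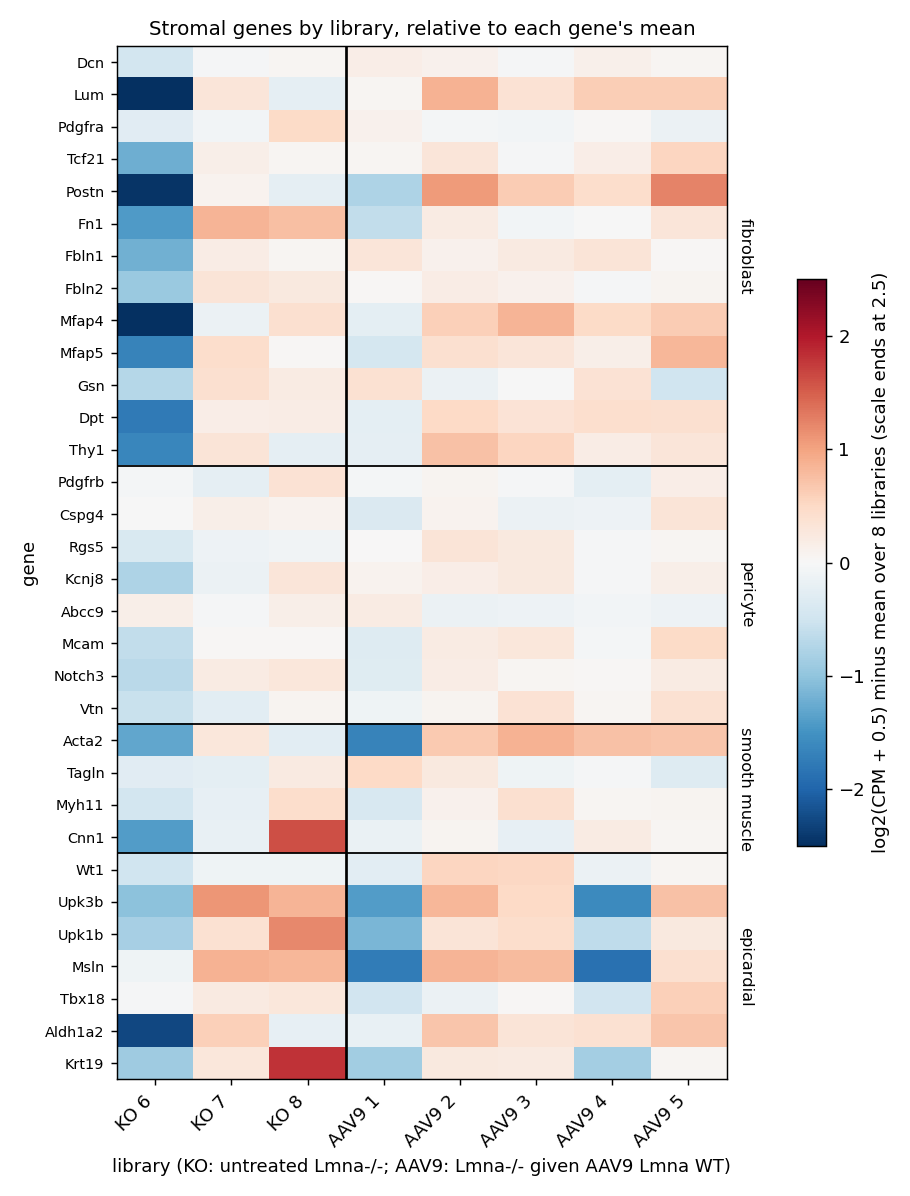
Each row is a gene, each column a library, and colour gives log2(CPM + 0.5) minus the gene's mean over the 8 libraries. Untreated replicate 6 is below the mean in all 13 fibroblast rows, vector replicates 1 and 4 are low in several epicardial rows, and no block of rows separates the groups.

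The spread among untreated hearts exceeded the difference between groups for most members. In 25 of the 32 genes the absolute log2 fold change was smaller than the SD of log2(CPM + 0.5) among the 3 untreated libraries, and in 23 that SD was larger than the one among the vector libraries. The 95% interval of the fold change lay within 2-fold in either direction for 15 members, among them Dcn, Pdgfra, Pdgfrb, Rgs5, Notch3, Myh11 and Wt1. For the other 17 it reached past 2-fold: upward only for 11, among them Lum, Postn and Acta2, downward only for Fn1, Cnn1 and Krt19, and in both directions for Msln, Upk3b and Upk1b. Whether each library is a separate animal is not stated in the labels, and the p-values describe only the spread from library to library.

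**Figure D2:**
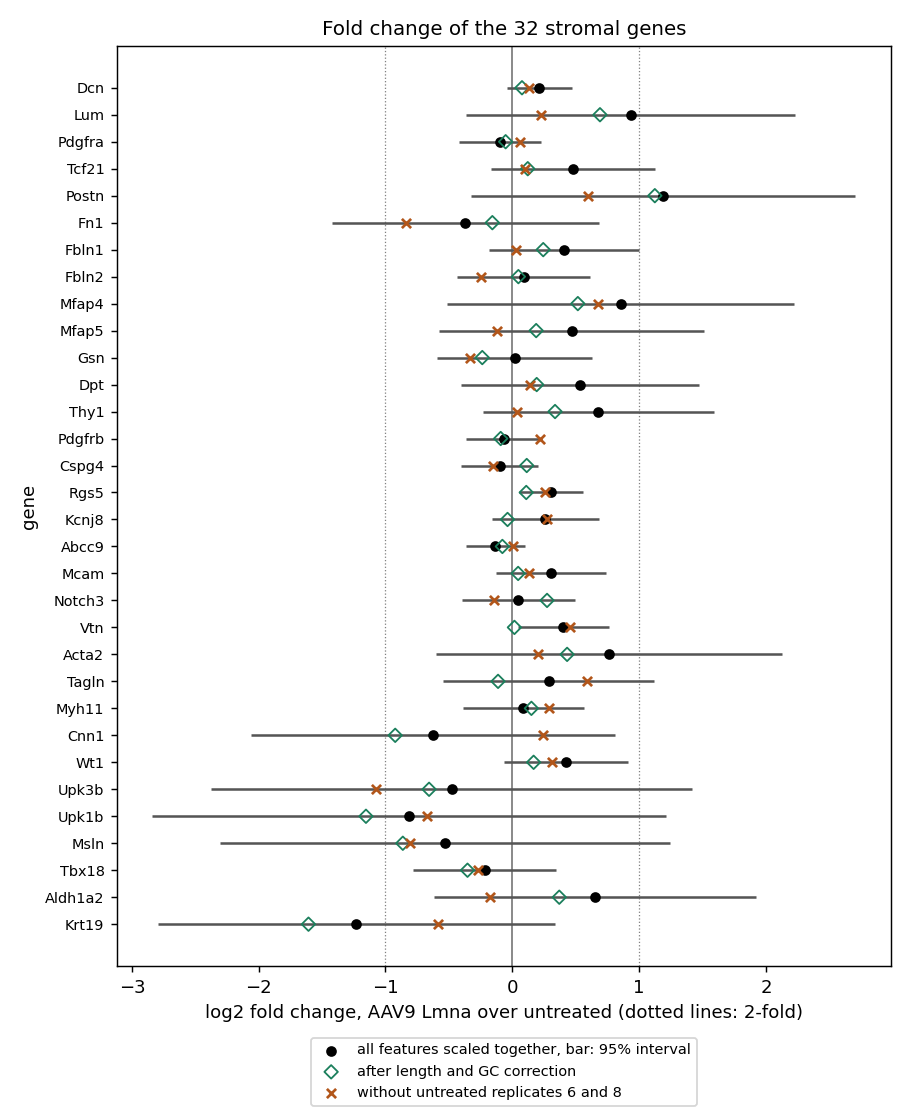
Log2 fold change of each member, vector over untreated, with its 95% interval (bar) when all features are scaled together, and the point values after the length and GC correction (diamonds) and without untreated replicates 6 and 8 (crosses). Intervals are narrow for most pericyte genes and reach past 2-fold for Lum, Postn, Acta2, Msln and Krt19.

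Fibroblast genes were uneven among the untreated hearts. Untreated replicate 6 had the lowest CPM of the 8 libraries in 13 of 13 fibroblast genes, and in 12 of 13 after the length and GC correction, the exception being Gsn. Their summed level was 2069 CPM in that library, 4556 and 4246 CPM in untreated replicates 7 and 8, and 3816 to 4410 CPM in the vector libraries. The median log2 fold change of the 13 was 0.47, and 0.06 without untreated replicates 6 and 8.

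Pdgfra and Tcf21 define the resident cardiac fibroblast. Pdgfra, a receptor for PDGF, had levels of 150.4, 174 and 254 CPM without the vector and 197, 178, 175, 188 and 165 CPM with it. The vector libraries lay inside the range of the untreated ones, with a log2 fold change of -0.10 (95% interval -0.42 to 0.23, edgeR adjusted p = 0.646). Tcf21, a transcription factor needed for fibroblasts to form, held 3.16, 8.83 and 8.26 CPM against 8.22, 9.97, 7.78, 9.06 and 11.9 CPM. Untreated replicates 7 and 8 lay among the vector libraries, and replicate 6 alone was far below. Thy1, a surface glycoprotein of fibroblasts that T cells also carry, held 2.91, 12.7 and 8.62 CPM against 8.597 to 17.1 CPM. Lymphocyte markers summed to 5.09 to 25.97 CPM in the untreated and 21.4 to 27.1 CPM in the vector libraries, with 5 of 11 genes at 0 in at least 1 library, and their part in the Thy1 values was not tested.

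Dcn and Lum lie next to each other on chromosome 10 and encode decorin and lumican, small proteoglycans that space collagen fibrils. Dcn (ENSMUSG00000019929, GRCm38 chromosome 10, 97479609 to 97518143, plus strand) held 570.2, 761 and 808 CPM in the untreated libraries and 879, 839, 766, 845 and 809 CPM in the vector libraries. Lum (ENSMUSG00000036446, chromosome 10, 97565128 to 97572703, plus strand) held 21.7, 163 and 113 CPM against 137, 240, 169, 201 and 201 CPM. Both genes were lowest in untreated replicate 6, but Lum was there far below the other libraries and Dcn only modestly so. The log2 fold changes were 0.21 for Dcn (interval -0.04 to 0.47) and 0.94 for Lum (interval -0.36 to 2.23), with edgeR adjusted p of 0.185 and 0.241. Without untreated replicates 6 and 8 the Lum value was 0.23. Dpt, which encodes dermatopontin, a small protein that binds decorin, held 29.98, 116 and 117 CPM against 86.8, 146, 129, 137 and 135 CPM.

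Postn and Fn1 encode periostin and fibronectin, adhesive matrix proteins of growing and injured tissue. Postn (ENSMUSG00000027750, chromosome 3, 54361109 to 54391037, plus strand) held 39.1, 228 and 184 CPM against 126, 452, 335, 291 and 510.4 CPM. Its mean was 150.4 ± 98.9 CPM (SD, n = 3) against 343 ± 150 CPM (SD, n = 5), and its log2 fold change was 1.19 (SE 0.65, interval -0.33 to 2.71, edgeR adjusted p = 0.206). Vector replicates 2 to 5 lay above all untreated libraries and vector replicate 1 lay among them. Fn1 (ENSMUSG00000026193, chromosome 1, 71585520 to 71653200, minus strand) held 99.2, 479 and 452 CPM against 174, 307, 254, 263 and 328 CPM. Untreated replicates 7 and 8 were thus above, and replicate 6 below, every vector library. With all libraries its log2 fold change was -0.37 and not called (edgeR adjusted p = 0.567). Without untreated replicate 6 it was -0.80 and called lower (edgeR adjusted p = 0.0314, in a fit that called 7.99% of features lower), so that 1 library decides the call. Fn1 shares 2.499% of its exonic bases with Apol7d on the other strand, and counting did not use strand.

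The fibulin and microfibril genes were also lowest in untreated replicate 6. Fbln1 and Fbln2 encode fibulins, which bind elastic fibres and basement membranes. Fbln1 held 28.01, 74.1 and 67.4 CPM against 66.5 to 81.3 CPM. Fbln2 held 174, 418 and 393 CPM against 324 to 377 CPM, with a log2 fold change of 0.09 (interval -0.43 to 0.62). Of the microfibril-associated genes, Mfap4 held 4.80, 28.1 and 41.0 CPM against 26.2, 47.1, 56.8, 43.6 and 48.7 CPM, and Mfap5 held 18.3, 80.8 and 60.5 CPM against 43.5 to 106 CPM. Untreated replicates 7 and 8 lay among the vector libraries for Fbln1, Mfap4 and Mfap5, and above all of them for Fbln2. Gsn encodes gelsolin, an actin-severing protein that is abundant in fibroblasts and also made by muscle. It held 927, 2013 and 1740.3 CPM against 1988, 1377, 1512, 1949.8 and 1071 CPM, and its log2 fold change was 0.02 (interval -0.59 to 0.63). Per kilobase of exon the mean level of Gsn in the vector libraries, 500.3 RPKM, was the highest of the 32 members, and Dcn followed among the fibroblast genes with 142 RPKM.

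**Figure D3:**
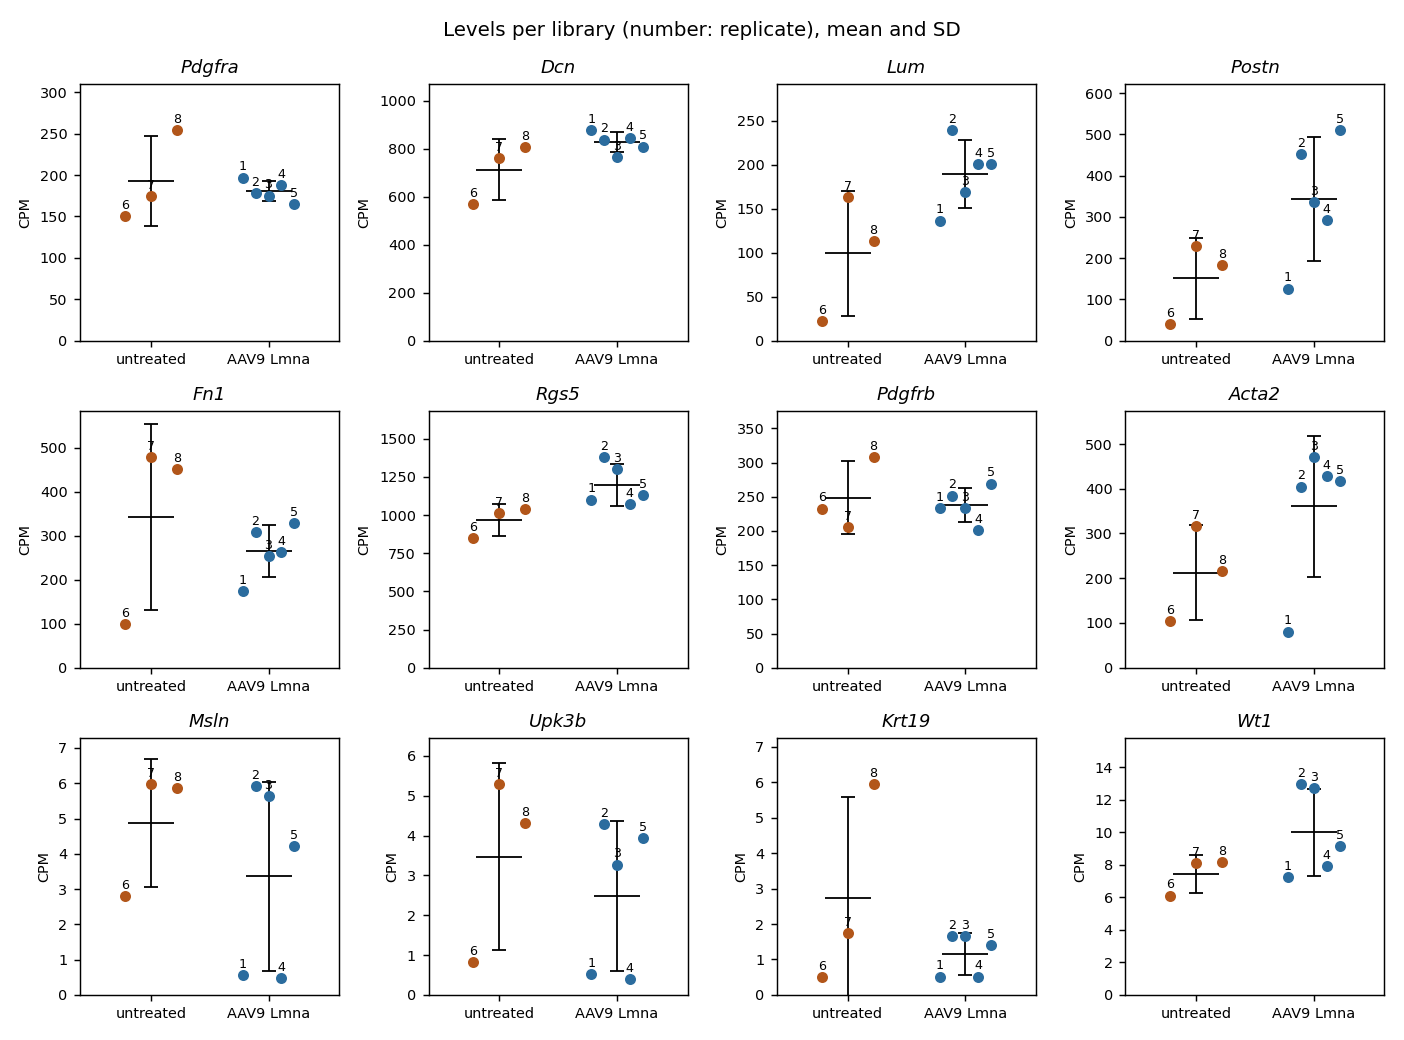
CPM of 12 members in each library, with replicate numbers beside the points and the mean and SD of each group as bars. The groups overlap in all panels except Rgs5, untreated replicate 6 is low for Lum, Postn and Fn1, vector replicate 1 is low for Acta2, and vector replicates 1 and 4 are low for Msln and Upk3b.

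Other markers gave the same picture of untreated replicate 6 with few called genes. Of 21 further fibroblast markers 19 were lowest in that library, where they summed to 1614 CPM, against 7168 and 7606 CPM in replicates 7 and 8 and 4698 to 7626 CPM in the vector libraries. The low fibroblast level of replicate 6 came with a low macrophage sum (211 CPM over 12 genes, against 354 to 787 CPM in the other 7 libraries). The endothelial sum was also low there (1805 against 2471 to 3045 CPM over 12 genes). The heart muscle sum was the highest (164962 against 98737 to 144175 CPM). Single genes were mixed: 10 of 12 macrophage genes were lowest in replicate 6, and of 12 endothelial genes 7 were lowest and 1 highest. Of 12 heart muscle genes 6 were highest there and 2 lowest. No gene of these 3 lists was at 0 in any library, and their part in the fibroblast values was not tested. Of the 21, 0 were called higher and 1 lower, where 25.7% of all features were called. The 1 was Clec3b, which encodes the secreted plasminogen-binding protein tetranectin. It held 5.78, 18.6 and 25.8 CPM against 5.07 to 6.61 CPM, a log2 fold change of -1.45 (edgeR adjusted p = 0.0204). That call was lost without untreated replicate 7 or 8, and with limma-voom.

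Genes of activated fibroblasts gave 0 calls higher and 2 lower of 13, where 25.7% of all features were called. The median log2 fold change of the 13 was 0.54. Of the 13 genes 10 were lowest in untreated replicate 6, and without untreated replicates 6 and 8 the median was -0.22. Ccn2, a matricellular growth factor gene induced by TGF-beta, held 138, 202 and 190.2 CPM against 152, 102, 98.3, 98.6 and 89.4 CPM, a log2 fold change of -0.71 (edgeR adjusted p = 0.0183). Lox, the collagen cross-linking enzyme lysyl oxidase, held 38.9, 19.8 and 41.0 CPM against 17.2 to 21.7 CPM, a log2 fold change of -0.79 (edgeR adjusted p = 0.0195). Untreated replicate 7 thus lay among the vector libraries for Lox. The call of Ccn2 was lost without untreated replicate 7 or 8, and that of Lox without untreated replicate 6 or 8 or vector replicate 3. Without untreated replicates 6 and 8 together the log2 fold changes were -0.89 for Ccn2 and -0.03 for Lox. Among 9 partners of the fibulins in elastic fibres, such as elastin and the fibrillins, 0 were called either way, and the median was 0.02.

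Pericyte genes had the steadiest summed level of the 4 groups. Their sum was 2173, 2333 and 2595 CPM in untreated replicates 6, 7 and 8 and 2342 to 2723 CPM in the vector libraries. Most of it came from Rgs5 and Abcc9, with 849 and 813 CPM in untreated replicate 6. That library was the lowest in 5 of the 8 genes, beside 42.5% of coding genes tested. The median log2 fold change was 0.15, or -0.03 with Ensembl features scaled alone, and 0 of 8 genes were called. For all 8 the 95% interval lay within 2-fold.

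Rgs5 was the only member whose groups did not overlap, a property of 29.9% of all features tested. Rgs5 (ENSMUSG00000026678, chromosome 1, 169655501 to 169695813, plus strand) encodes a regulator of G-protein signalling and is a classic pericyte marker. It held 849, 1012 and 1039.8 CPM in the untreated and 1101, 1379, 1299.6, 1071 and 1132 CPM in the vector libraries. Its log2 fold change was 0.31 (SE 0.12, interval 0.06 to 0.56), and it did not pass (edgeR adjusted p = 0.0687). Without untreated replicate 7 it was called at 0.36 (edgeR adjusted p = 0.0498, in a fit that called 17.0% of features higher), and without a filter on low counts at 0.35 (edgeR adjusted p = 0.0024, where 5.17% of features were called higher). The value was 0.11 with Ensembl features scaled alone and 0.11 after the length and GC correction. Per kilobase it was the highest of the pericyte genes, with 213 RPKM in the untreated and 263 RPKM in the vector libraries.

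Pdgfrb, the receptor through which vessels recruit pericytes, held 233, 206 and 308 CPM against 233, 252, 234, 201 and 269 CPM. For Pdgfrb untreated replicate 6 was not the lowest, and the groups overlapped throughout (log2 fold change -0.07, interval -0.36 to 0.23). Cspg4, the NG2 proteoglycan of pericytes, held 106, 117 and 113 CPM against 82.9, 114, 95.8, 97.0 and 133 CPM. The untreated values were closer together than the vector values here. Its log2 fold change was -0.10, and 0.11 after the length and GC correction. Of the 4 genes that encode PDGF ligands, 0 were called. The most abundant, Pdgfb, had a log2 fold change of 0.38 (edgeR adjusted p = 0.0638), and Pdgfa one of 0.30 (edgeR adjusted p = 0.146).

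Kcnj8 and Abcc9 are neighbours on chromosome 6 and encode the pore and the sulfonylurea receptor of a potassium channel that senses ATP. Pericytes carry both, and heart muscle makes Abcc9 too. Kcnj8 (142564837 to 142571614, minus strand) held 37.3, 57.9 and 78.7 CPM against 67.9, 71.5, 75.2, 62.2 and 70.2 CPM. The untreated values ran on both sides of the vector values. Its log2 fold change of 0.26 was not called (edgeR adjusted p = 0.32) and became 0.55 without untreated replicate 8, where it was called higher (edgeR adjusted p = 0.0396). Abcc9 (142587862 to 142702315, minus strand) held 813, 721 and 822 CPM against 856, 671, 673, 701 and 679.5 CPM. Vector replicate 1 was the highest of the 8 libraries and the other vector libraries were the lowest, with untreated replicate 7 just above them. Its log2 fold change was -0.13 (interval -0.36 to 0.10). Abcc9 shares 1.89% of its exonic bases with the antisense transcript 5330439B14Rik.

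Mcam, an adhesion molecule of mural and endothelial cells, held 52.9, 83.0 and 82.8 CPM against 65.3 to 114 CPM (log2 fold change 0.30, edgeR adjusted p = 0.263). Vtn, vitronectin, which brain pericytes express, held 21.4, 26.3 and 33.6 CPM against 29.5, 33.5, 41.2, 32.98 and 41.6 CPM. Untreated replicate 8 lay within the vector range. The log2 fold change was 0.40 (edgeR adjusted p = 0.0883), 0.21 with Ensembl features scaled alone and 0.02 after the length and GC correction. Without untreated replicate 8 the Vtn value was 0.59 and called higher (edgeR adjusted p = 0.0343). The fit without that library called 7.52% of features higher.

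Notch3, the mural Notch receptor, held 60.004, 111 and 117 CPM against 78.0, 109.7, 99.7, 97.3 and 111 CPM. The groups overlapped, with a log2 fold change of 0.05 (interval -0.40 to 0.49), and 0.27 after the length and GC correction. Of 12 Notch ligands, other receptors and targets, 5 were called higher and 1 lower. The same test called 10.6% of all features higher, and 2535 of 13785 coding genes. With Ensembl features scaled alone the counts were 3 higher and 2 lower, where 12.9% of features were called. After the length and GC correction they were 1 and 0, where 7.71% of features were called. The median log2 fold change of the 12 was 0.37, and 0.21 without untreated replicates 6 and 8. Hes1, a direct Notch target, held 22.8, 23.4 and 29.5 CPM in the untreated and 42.8, 42.0, 38.1, 45.1 and 50.2 CPM in the vector libraries, a log2 fold change of 0.79 (SE 0.13, edgeR adjusted p = 0.00353). The ligand gene Dll1 rose by 1.18 on the log2 scale (edgeR adjusted p = 0.0103), from 2.62 to 4.86 CPM in the untreated to 6.52 to 11.4 CPM in the vector libraries. The receptor gene Notch2 fell by 0.39 on that scale (edgeR adjusted p = 0.0101). With Ensembl features scaled alone the values were 0.59 for Hes1 and -0.58 for Notch2, both called. After the length and GC correction only Dll1 kept its call, at 0.99, and Hes1 (0.36) and Notch2 (-0.08) were among the 5 genes that lost theirs. Without untreated replicates 6 and 8 the Dll1 value was 0.86. These genes are shared with the endothelium, where Notch also acts. Of 12 endothelial markers 4 were called higher and 2 lower, where 25.7% of all features were called. The part of these markers in the Notch pathway values was not tested.

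Of 19 further mural markers 2 were called higher and 2 lower, where 25.7% of all features were called. After the length and GC correction these counts were 0 and 2, where 7.71% of features were called. Ednra, an endothelin receptor gene listed here as a mural marker, had a log2 fold change of -1.25 (edgeR adjusted p = 0.0154), from 164, 68.4 and 66.8 CPM to 40.5, 36.6, 41.8, 39.4 and 51.9 CPM. Untreated replicate 6, the highest for Ednra, also had the highest summed heart muscle markers (164962 CPM), whose part was not tested. Ednra kept its call in every alternative that left more than 1 untreated library, and was -0.69 without untreated replicates 6 and 8. Rgs4, a relative of Rgs5, rose by 1.08 (edgeR adjusted p = 0.0201), from 11.5, 28.2 and 14.03 CPM to 32.99, 38.6, 48.2, 33.9 and 36.2 CPM. That call was lost without untreated replicate 6 or 8 and after the length and GC correction (0.82). Without both of those libraries the Rgs4 value was 0.44. Aoc3, an amine oxidase of smooth muscle, held 41.8, 32.2 and 51.7 CPM against 24.01 to 33.8 CPM. The log2 fold change was -0.57 (edgeR adjusted p = 0.0253), and -0.17 without untreated replicates 6 and 8 together. The call was lost without any 1 of 6 libraries, the exceptions being untreated replicate 7 and vector replicate 5.

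Smooth muscle genes encode the contractile apparatus of the vessel wall. None of the 4 was called, and their sum of 144, 365 and 297 CPM in the untreated and 124, 465, 543, 487 and 476 CPM in the vector libraries was carried by Acta2. Acta2 (ENSMUSG00000035783, chromosome 19, 34241090 to 34255590, minus strand) encodes smooth muscle alpha-actin, which immature heart muscle and activated fibroblasts also make. It held 105, 316 and 216 CPM against 80.6, 405, 471, 429 and 418 CPM. Vector replicates 2 to 5 were above all untreated libraries, and vector replicate 1 was the lowest of the 8. The log2 fold change was 0.76 (SE 0.58, interval -0.60 to 2.13, edgeR adjusted p = 0.354).

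Myh11, the smooth muscle myosin heavy chain, is the most specific of the 4. It held 38.3, 45.8 and 72.3 CPM against 40.1, 57.2, 69.5, 54.7 and 55.4 CPM, so vector replicate 1 was again the lowest of its group. Its log2 fold change was 0.09 (interval -0.39 to 0.56). Cnn1, calponin, held 0.492 and 1.79 CPM in untreated replicates 6 and 7, 7.49 CPM in replicate 8, and 1.75 to 2.49 CPM in the vector libraries. Untreated replicate 8 set its sign: the log2 fold change was -0.63 with it and 0.89 without it, neither of them called (edgeR adjusted p = 0.48 and 0.161). That library also held 1244 CPM summed over 10 atrial muscle markers, against 157 to 277 CPM in the other 7, with 2 of the 10 at 0 in at least 1 library, and the part of atrial tissue was not tested. Tagln, transgelin, held only 0.498 to 1.26 CPM in any library. Of its exonic bases 67.9% overlap Pcsk7 and Gm48529 on the other strand, and reads that overlap more than 1 gene were set aside as ambiguous, so its count is no measure of its expression.

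Smooth muscle contractile genes are classic targets of serum response factor (SRF), which binds a sequence called the CArG box and is helped by myocardin and its relatives. Of 4 genes for SRF and these coactivators 0 were called higher and 3 lower, where 25.7% of all features were called. The median log2 fold change of the 4 was -0.58. Myocd, myocardin itself, held 249.9, 126 and 171 CPM in the untreated and 133, 98.5, 95.8, 102 and 116 CPM in the vector libraries (log2 fold change -0.74, edgeR adjusted p = 0.0208). Mrtfb held 99.7, 73.0 and 99.4 CPM against 63.0, 57.3, 47.8, 51.6 and 58.1 CPM (log2 fold change -0.71, edgeR adjusted p = 0.00484). Mrtfa held 17.4, 23.2 and 22.3 CPM against 16.2, 15.2, 16.2, 15.1 and 13.8 CPM (log2 fold change -0.45, edgeR adjusted p = 0.0236). The groups did not overlap for Mrtfa and Mrtfb, and untreated replicate 7 overlapped the vector libraries for Myocd. Heart muscle also makes myocardin. Srf, named here although it was not called, had a log2 fold change of -0.06 (edgeR adjusted p = 0.813). After the length and GC correction Mrtfa and Mrtfb were called, at -0.54 and -0.57, and Myocd was not (-0.85, edgeR adjusted p = 0.0523). The Myocd call was also lost without untreated replicate 6, vector replicate 2 or vector replicate 3. That of Mrtfa was lost without untreated replicate 7 or 8. Without untreated replicates 6 and 8 together the values were -0.19 for Myocd, -0.59 for Mrtfa and -0.38 for Mrtfb.

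**Figure D4:**
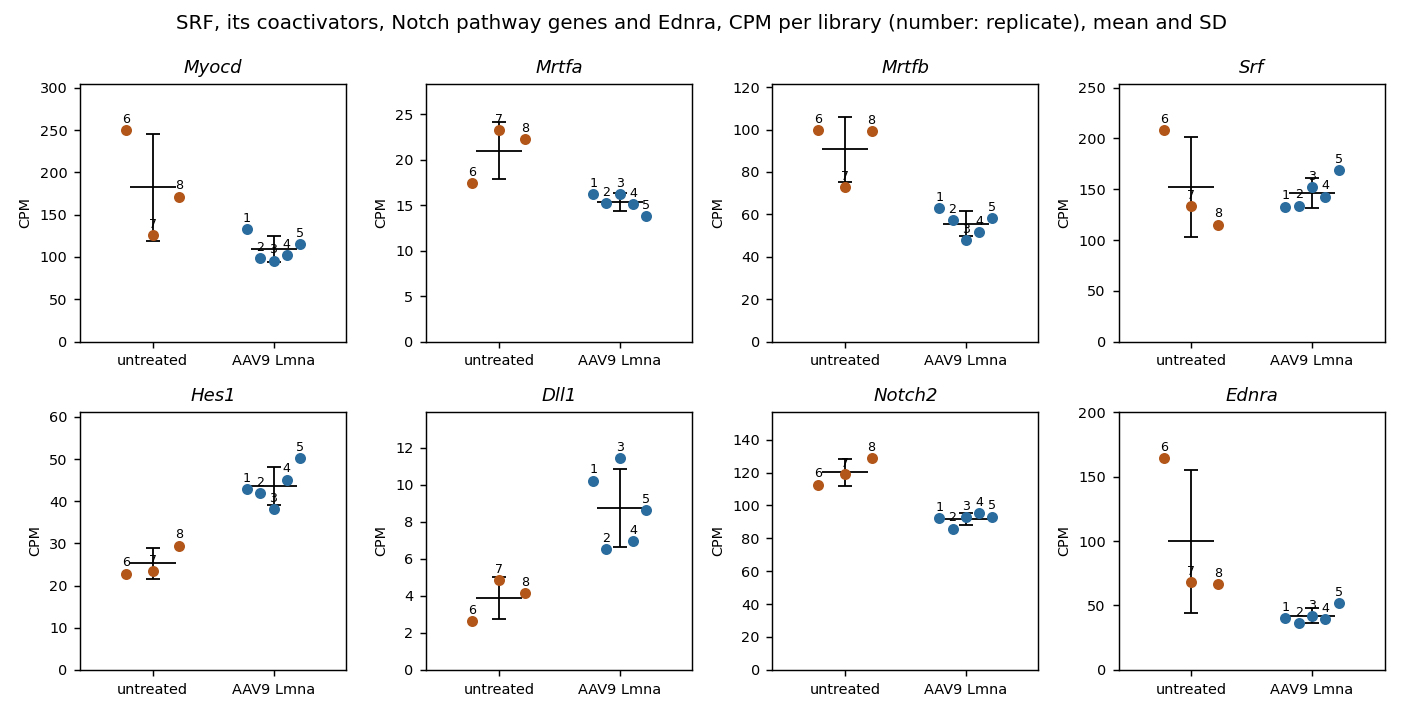
CPM per library of SRF, its 3 coactivators, 3 Notch pathway genes and Ednra, with replicate numbers beside the points and group means and SDs as bars. The vector libraries lie below all untreated ones for Mrtfa, Mrtfb, Notch2 and Ednra and above them for Hes1 and Dll1, and the groups overlap for Myocd and Srf.

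The 2 CArG-like sequences of Acta2 are shown because Acta2, which was not called, held most of the summed smooth muscle CPM. No link between these sequences and the calls of the SRF coactivators was tested. Both sequences were found in the 250 bases before the RefSeq start of the gene (GRCm38.p6), where the CArG box was searched with at most 1 base off. The box has the same consensus on both strands, and the hits do not overlap each other. They begin 84 and 34 bases before that start, at chr19:34255438-34255467 and chr19:34255388-34255417 with their flanks, on the minus strand. GENCODE starts the gene further upstream and places both in its first exon, in the 5′ UTR. Capitals mark the box.
Acta2 upstream box: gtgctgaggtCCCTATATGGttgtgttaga
Acta2 downstream box: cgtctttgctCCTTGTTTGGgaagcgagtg
Among 32851 RefSeq windows of that length, 18.6% held at least 1 such sequence, 2.96% held at least 2 and 1.47% held an exact box. Windows were found for 19 of the 32 members, of which Gsn, Fbln1, Fbln2, Kcnj8, Cspg4 and Tbx18 also held at least 1 box with 1 base off. Exact boxes in members numbered 0. The other 13 members had no window, so a member not named here either held no box or was not searched. A match of letters does not show binding.

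Epicardial genes had the lowest summed level of the 4 groups, and they varied within both groups. Their sum was 19.1, 48.9 and 45.2 CPM in the untreated and 24.3, 51.8, 46.6, 30.2 and 50.3 CPM in the vector libraries. The median log2 fold change was -0.48, and 0 of 7 were called. In 6 of the 7 genes vector replicates 1 and 4 were the lowest 2 of the 5 vector libraries, which held for 15.3% of coding genes tested. That pattern was not particular to epicardial genes. It also held for 6 of 8 pericyte genes and 7 of 12 endothelial markers, and for 5 of 13 fibroblast and 1 of 4 smooth muscle genes.

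Msln, Upk3b and Upk1b encode mesothelin and uroplakins, surface proteins of mesothelial cells. Msln (ENSMUSG00000063011, chromosome 17, 25748613 to 25754378, minus strand) held 2.79, 5.97 and 5.86 CPM in the untreated libraries, and 0.561, 5.91, 5.64, 0.472 and 4.21 CPM in vector replicates 1 to 5. Upk3b (ENSMUSG00000042985, chromosome 5, 136038496 to 136046487, plus strand) held 0.820, 5.29 and 4.31 CPM against 0.514, 4.28, 3.27, 0.386 and 3.94 CPM. Upk1b held 0.123, 0.938 and 2.04 CPM against 0, 0.871, 0.996, 0.215 and 0.815 CPM. In all 3 genes vector replicates 1 and 4 lay far below vector replicates 2, 3 and 5, which were nearer to untreated replicate 7. The log2 fold changes were -0.53 for Msln, -0.48 for Upk3b and -0.81 for Upk1b, with edgeR adjusted p of 0.63, 0.687 and 0.519 and intervals that all reached past 2-fold.

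Krt19, a keratin of simple epithelia, was highest in untreated replicate 8. It held 0.492, 1.75 and 5.95 CPM in the untreated and 0.514, 1.67, 1.66, 0.515 and 1.404 CPM in the vector libraries. Its log2 fold change of -1.23 (interval -2.80 to 0.34, edgeR adjusted p = 0.211) was 0.06 without that library. Of 12 further epicardial markers 10 were tested and 0 were called, 8 of the 12 were highest in untreated replicate 8, and in 5 of the 12 vector replicates 1 and 4 were the lowest pair of their group. The median of the 10 was -0.55.

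The transcription factor genes varied less. Wt1, which drives the release of cells from the embryonic epicardium, held 6.11, 8.10 and 8.17 CPM against 7.24, 12.96, 12.7, 7.90 and 9.15 CPM (log2 fold change 0.42, interval -0.07 to 0.91). Tbx18, which pericytes also express, held 6.60, 8.02 and 8.31 CPM against 4.72, 6.02, 6.93, 4.72 and 10.5 CPM (log2 fold change -0.22, interval -0.78 to 0.35). Vector replicates 1 and 4 were the lowest of their group for both genes, by less than for mesothelin. Tbx18 shares 20.6% of its exonic bases with D030062O11Rik on the other strand.

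Aldh1a2 makes retinoic acid, which the epicardium supplies to the growing heart wall. It held 2.13, 18.8 and 10.5 CPM in the untreated and 10.8, 20.04, 15.4, 16.02 and 20.2 CPM in the vector libraries, so its pattern was that of the fibroblast genes, with untreated replicate 6 far below the rest. The log2 fold change was 0.65 (interval -0.62 to 1.93), and -0.18 without untreated replicates 6 and 8. Of 15 other genes of retinoic acid metabolism and signalling 11 were tested. Of the 11, 2 were called higher and 1 lower, where 25.7% of all features were called. Dhrs3, a reductase that returns retinal to retinol, rose by 0.59 (edgeR adjusted p = 0.0121). The receptor gene Rara fell by 0.38 (edgeR adjusted p = 0.0159), and its partner Rxrb rose by 0.29 (edgeR adjusted p = 0.0349). With Ensembl features scaled alone Rara kept its call and Dhrs3 (0.40) and Rxrb (0.09) lost theirs. The Rxrb call was also lost when any 1 of 6 libraries was left out, the exceptions being untreated replicate 7 and vector replicate 1. Without untreated replicates 6 and 8 together the values were 0.41 for Dhrs3, -0.30 for Rara and 0.36 for Rxrb.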

How the data were processed

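RNA sequencing was read from 8 tables, 1 per library. The deposited values are raw read counts per gene, whole numbers without normalization, and the names of the deposited tables say that HTSeq counted without strand. TopHat2, HTSeq, edgeR and limma and the builds GRCm38 and mm10 are named in the submitters' processing notes, without roles. Summary lines were kept out. Of the reads counted as on features, outside features or ambiguous, 12.1 to 24.7% lay outside features and 21.0 to 26.4% were ambiguous. Symbols and coordinates came from GENCODE M21 (GRCm38). Overlaps with NONCODE features were not checked.

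Low counts were removed with filterByExpr, leaving 26717 features. Groups were compared in R 4.3.3 with edgeR 4.0.16, by TMM scaling, a robust quasi-likelihood fit on group and Benjamini-Hochberg adjustment at 0.05. Intervals use the standard error and the fit's degrees of freedom. RPKM divide CPM by merged exon length. Alternatives were RLE, DESeq2 1.42.0, limma-voom 3.58.1, other filters, Ensembl features alone, a loess correction (span 0.5) for transcript length and GC, and left-out libraries. The loess correction also used Ensembl features alone. The script was tested on simulated counts. It recovered 0 of 67 genes changed 1.5-fold, 23 of 67 changed 2-fold and 51 of 66 changed 4-fold. The simulation gave 78 calls against 6858 in the data, so these shares may not carry over.

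Members and lists were chosen with earlier results of these data known. All members are named. From each other list up to 3 called genes with the smallest p were named, or up to 2 uncalled ones with the highest level. No replicate numbers are shared between the groups.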

Additional observations from a re-analysis of the deposited data

Results flagged for a closer look

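Among the 5 vector libraries, 3 of 32 members had a library farther from the others than Dixon's criterion allows (0.71 for 5 values), and vector replicate 1 was that library each time. Chance flags about 1 in 20 such groups. For Abcc9 the gap to the nearest library was 0.834 of the group's range, with 856 CPM in vector replicate 1. For Acta2 it was 0.831, with 80.6 CPM, the lowest of the 5. For Dpt it was 0.721, with 86.8 CPM, also the lowest. Leaving out vector replicate 1 changed the call of none of these 3 genes.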

How the results depend on the processing

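The count of members called higher was 0 with all libraries, 1 with DESeq2 (Rgs5) and 3 without a filter on low counts (Rgs5, Vtn and Mcam). With each library left out in turn it ranged from 0 to 2, with Rgs5 called without untreated replicate 7 and Vtn and Kcnj8 without untreated replicate 8. The count called lower was 0, and from 0 to 1 with each library left out (Fn1 without untreated replicate 6). None of the other alternatives with more than 1 untreated library called a member. No paired analysis was possible because the groups share no replicate numbers.

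The sign of the uncalled fold changes turned in 15 of 32 members in at least 1 of 16 alternatives, with no such value called (smallest edgeR adjusted p = 0.13). The log2 values that turned with Ensembl features alone were -0.079 for Fbln2, -0.15 for Gsn, -0.13 for Notch3 and -0.10 for Myh11. After the length and GC correction they were -0.24 for Gsn, 0.11 for Cspg4, -0.037 for Kcnj8 and -0.11 for Tagln. With at least 1 CPM in 3 libraries, which kept 30 members, they were -0.030 for Gsn and -0.0013 for Notch3, and with limma-voom 0.18 for Cnn1. Without untreated replicates 6 and 8 they were 0.064 for Pdgfra, -0.24 for Fbln2, -0.12 for Mfap5, -0.34 for Gsn, 0.22 for Pdgfrb, 0.0036 for Abcc9, -0.15 for Notch3, 0.24 for Cnn1 and -0.18 for Aldh1a2. With each library left out in turn, 9 genes ran across 0: Pdgfra from -0.24 to 0.16, Fbln2 from -0.20 to 0.32, Gsn from -0.24 to 0.26, Pdgfrb from -0.17 to 0.12, Notch3 from -0.19 to 0.22, Myh11 from -0.082 to 0.41, Cnn1 from -1.13 to 0.89, Upk1b from -1.33 to 0.15 and Krt19 from -1.72 to 0.055. Each of these extremes came from leaving out an untreated library. The cause was not tested. Raw counts summed over the untreated and over the vector libraries were lowest for Tagln (47 and 95), Upk1b (70 and 67), Krt19 (184 and 133) and Cnn1 (219 and 241). The part of low counts in these values was not tested.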
